A study of Homo sapiens with 80 samples.

Results

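CD163, TREM1, ITGAX, GRN and CD68 are genes best known from monocytes, macrophages and granulocytes, and their RNA was measured here in T-cell lymphoma lines. The members are these 5 genes by name, out of 58735 genes listed for RNA-seq, and they were chosen with earlier results of the same libraries in view. Which values the genes were selected on is not recorded. The differences between regrown and parental cells in all 3 assays, the lenalidomide response of parental cells and the levels in both lines were treated as used by that choice and are given as a description, without a test. The other comparisons are given with tests, on the assumption that they were not used. They share libraries with the described comparisons, so the choice may still have affected their p-values. All 5 genes had rows for RNA-seq and for PRO-seq, 4 had rows for DGE, and CD68 in DGE was not analysed here.

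CD163 encodes the scavenger receptor through which macrophages take up haemoglobin bound to haptoglobin, and in macrophages it is induced by interleukin-10 and glucocorticoids. TREM1 encodes a surface receptor that signals through the adaptor TYROBP and amplifies inflammatory responses of neutrophils and monocytes. ITGAX encodes CD11c, the integrin alpha chain that pairs with the ITGB2 chain. GRN encodes progranulin, a secreted growth factor precursor that sortilin (SORT1) carries to lysosomes, and CD68 encodes a heavily glycosylated lysosomal membrane protein. GRN and CD68 are expressed in many cell types, whereas CD163 and TREM1 are used as markers of the myeloid lineage.

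The lines were SU-DHL-1 and KI-JK, established from ALK-positive anaplastic large cell lymphoma (ALCL), a mature T-cell lymphoma driven by an ALK fusion kinase. The regrown cells were 3 pools of SU-DHL-1 selected for growth in rising lenalidomide and then kept without the drug for at least 2 months, against parental SU-DHL-1. PRO-seq, which reads RNA still attached to engaged polymerase, covered regrown and parental cells. DGE, which reads transcript ends, covered regrown and parental cells given lenalidomide (LEN, 2.5 µM for 18 h) or its solvent DMSO. In the ZFP91 RNA-seq experiment all cells, regrown and parental, carried Cas9 and an inducible guide RNA against ZFP91. The KO libraries had received doxycycline (1 µg/ml for 96 h) to switch on the guide and the WT libraries had not, so that knockout and doxycycline cannot be told apart. In the CSNK2B RNA-seq experiment, KI-JK and SU-DHL-1 cells carried a CSNK2B vector or an empty vector. Each of the 14 groups had 3 libraries. Of 80 samples, the 38 ChIP-seq samples were not analysed here.

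The libraries held 33.5 to 47.2 M counts in PRO-seq, 41571 to 395827 counts in DGE, 15.4 to 23.1 M in the ZFP91 experiment, and 23.1 to 28.9 M for KI-JK and 14.4 to 24.1 M for SU-DHL-1 in the CSNK2B experiment. Here M stands for 1000000, and levels are given as counts per 1000000 counts of the library (CPM). CSNK2B stood at 76.3 to 80.4 CPM with its vector and 15.8 to 18.4 CPM without it in KI-JK, and at 247 to 257 CPM against 29.2 to 30.4 CPM in SU-DHL-1. ZFP91 RNA was 75.9 to 100.9 CPM in regrown KO and 86.5 to 94.3 CPM in regrown WT libraries, which overlapped. In parental cells it was 85.8 to 91.7 CPM in KO against 111 to 119 CPM in WT libraries. Small Cas9 deletions need not lower the RNA, so these levels do not show how complete the knockout was. Its completeness in regrown and in parental cells was not tested. T lineage and ALCL markers, among them ALK, summed to 3809 to 5139 CPM in the ZFP91 experiment, and 8 of 14 averaged at least 1 CPM in each of its 4 groups. The labels do not say that parental or vector replicates came from separate cultures, so p-values measure the spread between these libraries, which may be technical.

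The promoters of the 4 members found by symbol in the RefSeq promoter table (GRCh38.p14) are shown because the nascent RNA of these genes differed between regrown and parental cells. Each runs from 250 bases before to 50 bases after the annotated start, 5′ to 3′ on the strand of the gene. Capitals mark matches, on either strand, to 5 motifs: TGANTCA for AP-1, TGGGAA for the core bound by IKZF1, GAGGAA for the core bound by PU.1, TTCNNNGAA for STAT factors and TTGCNNAA for C/EBP factors. The windows lie at chr12:7503728-7504027 (minus strand) for CD163, chr6:41286633-41286932 (minus strand) for TREM1, chr17:44345052-44345351 (plus strand) for GRN and chr17:7579388-7579687 (plus strand) for CD68.
CD163: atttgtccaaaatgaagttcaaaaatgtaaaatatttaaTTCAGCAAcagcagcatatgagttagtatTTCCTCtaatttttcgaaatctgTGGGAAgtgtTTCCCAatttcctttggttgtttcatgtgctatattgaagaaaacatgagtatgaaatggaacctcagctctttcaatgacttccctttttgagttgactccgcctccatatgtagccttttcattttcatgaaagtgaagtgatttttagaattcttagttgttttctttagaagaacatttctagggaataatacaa
TREM1: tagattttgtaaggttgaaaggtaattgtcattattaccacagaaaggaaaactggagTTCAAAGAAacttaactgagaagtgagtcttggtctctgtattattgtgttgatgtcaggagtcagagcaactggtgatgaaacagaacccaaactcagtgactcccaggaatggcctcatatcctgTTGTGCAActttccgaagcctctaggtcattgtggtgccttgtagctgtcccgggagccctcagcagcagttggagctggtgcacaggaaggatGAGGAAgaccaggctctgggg
GRN: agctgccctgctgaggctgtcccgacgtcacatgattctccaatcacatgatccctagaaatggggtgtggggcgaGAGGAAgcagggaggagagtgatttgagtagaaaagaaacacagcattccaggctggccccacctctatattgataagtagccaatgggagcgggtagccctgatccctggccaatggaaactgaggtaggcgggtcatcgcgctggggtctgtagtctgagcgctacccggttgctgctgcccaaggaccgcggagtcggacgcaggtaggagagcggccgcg
CD68: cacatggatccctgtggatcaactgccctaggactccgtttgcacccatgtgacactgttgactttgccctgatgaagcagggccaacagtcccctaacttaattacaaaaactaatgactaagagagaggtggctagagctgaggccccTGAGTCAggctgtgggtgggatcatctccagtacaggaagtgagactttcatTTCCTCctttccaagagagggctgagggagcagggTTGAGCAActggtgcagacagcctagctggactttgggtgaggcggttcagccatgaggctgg

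The CD163 window held the IKZF1 core at 2 places, 159 and 149 bases before the start (first base of each match), once on each strand, and IKZF1 is one of the proteins that lenalidomide marks for degradation. Of 35116 RefSeq promoter windows of the same length, 24% held that core. The PU.1 core, recognised by the myeloid factor encoded by SPI1, was found in all 4 windows, against 27.9% of all windows. SPI1 itself had no RNA-seq count in parental KO, parental WT and regrown WT cells, nor in SU-DHL-1 with the empty vector. A C/EBP match was found in 3 of the 4, against 10.5% of all windows. The STAT motif was found in the TREM1 window alone and the AP-1 motif in the CD68 window alone, against 7.66% and 7.71% of all windows. No capitals overlap between motifs in these windows. A match is a string of letters and was not tested as a binding site.

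Nascent RNA of CD163 was several-fold lower in regrown than in parental cells. PRO-seq read 33.4, 9.42 and 8.37 CPM over CD163 in regrown pools 1, 2 and 3, against 66.5, 88.6 and 71.4 CPM in parental libraries. Every regrown library was below every parental one, and pool 1 lay well above the other regrown pools. The log2 fold change was -2.16 ± 0.44 (SE), and -3.12 ± 0.16 without pool 1. GRN had 10.6, 16.3 and 6.31 CPM in regrown pools against 39.1, 44.9 and 59.5 CPM in parental libraries, a log2 fold change of -2.12 ± 0.29. Again no regrown library reached the parental range.

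CD68 nascent RNA was 75.3, 74.2 and 72.3 CPM in regrown pools against 129, 138 and 154 CPM in parental libraries (-0.93 ± 0.09). The regrown pools lay very close to each other, all under the parental range. TREM1 had 29.7, 21.7 and 29.3 CPM in regrown pools against 44.4, 37.4 and 38.5 CPM in parental libraries, a smaller difference without overlap (-0.59 ± 0.15). ITGAX had 30.8, 47.2 and 55.2 CPM in regrown pools against 62.8, 55.2 and 49.1 CPM in parental libraries, and these ranges overlapped (-0.34 ± 0.18). Thus 4 of the 5 genes were lower without overlap, where 22.4% of the 16456 genes tested were; this contrast was in view when the genes were chosen. In bulk libraries, fewer cells making a transcript and less of it per cell cannot be told apart.

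**Figure D1:**
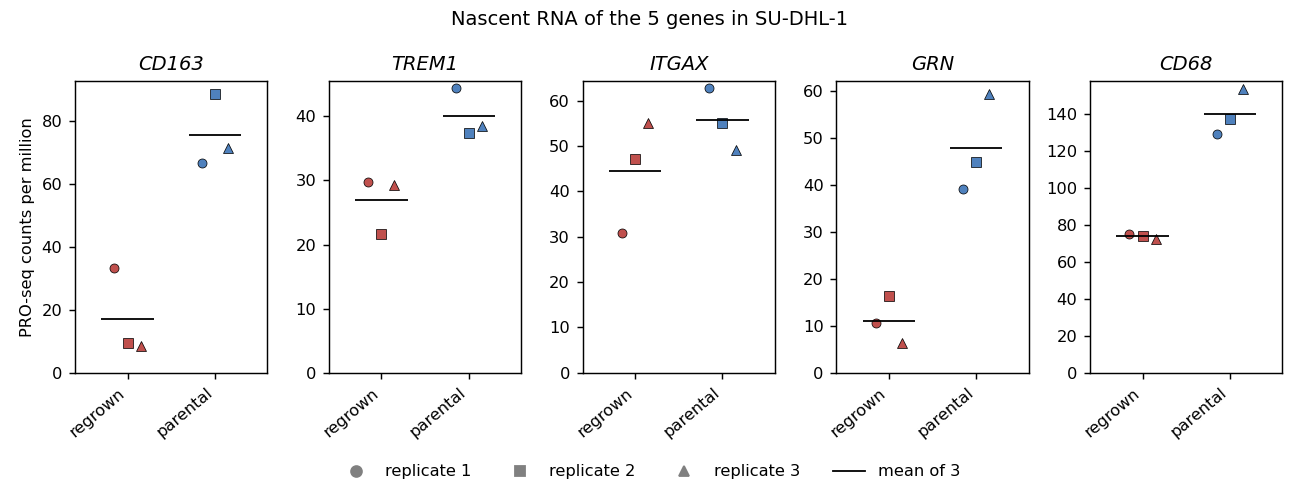
PRO-seq level (CPM, linear axis from 0) of each gene in the 3 regrown and the 3 parental SU-DHL-1 libraries; points are libraries and lines are means. CD163, TREM1, GRN and CD68 have no regrown library in the parental range, ITGAX ranges overlap, and regrown pool 1 has the highest regrown CD163 value (33.4).

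Per kilobase of the interval counted, CD68 had the highest PRO-seq level of the 5, with 29.9 ± 0.607 CPM per kb in regrown and 56.7 ± 5.08 CPM per kb in parental cells (SD, n = 3 each). Its interval of 2472 bases was the shortest and began at 7579640, beside the RefSeq start at 7579638, so polymerase near that start was counted. The intervals of TREM1, ITGAX and GRN likewise began at or beside their RefSeq starts. Interval lengths reached 31558 bases for CD163, so this order need not be one of transcription rates. GRN followed in parental cells, at 1.42 ± 0.644 CPM per kb in regrown and 6.14 ± 1.35 CPM per kb in parental cells. CD163 had 0.540 ± 0.448 and TREM1 1.43 ± 0.240 CPM per kb in regrown cells, against 2.39 ± 0.367 and 2.14 ± 0.201 CPM per kb in parental cells. ITGAX had 1.597 ± 0.446 CPM per kb in regrown and 2.00 ± 0.246 CPM per kb in parental cells, so that CD163, TREM1 and ITGAX had overlapping ranges in parental cells. In regrown cells CD163 had the lowest mean of the 5, with a range that overlapped that of GRN. The CD163 interval, chr12:7471180-7502737 on hg38, ends short of the RefSeq start at 7503777, so pausing at that start was not counted.

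Genes around a member were also compared, over the 24 nearest tested genes of its chromosome. Around CD163 their median log2 fold change between regrown and parental PRO-seq was 0.01, with a range of -1.50 to 1.23 that did not reach the CD163 value. Around TREM1 the median was -0.51, and 17 of the 24 genes fell by edgeR's quasi-likelihood test with Benjamini-Hochberg adjustment, where 16.2% of all genes fell, so the nascent TREM1 difference of -0.59 was close to that of its neighbourhood. Around CD68 the median was -0.35, with 11 of 24 genes lower by that test. Around GRN and ITGAX the medians were 0.12 and 0.10, and the GRN neighbours ranged from -2.51 to 0.65, which held the GRN value. In RNA-seq of WT cells, TREM1 was further below the median of its neighbours, at -2.10 against -0.37, but within their range of -2.57 to 0.13.

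**Figure D2:**
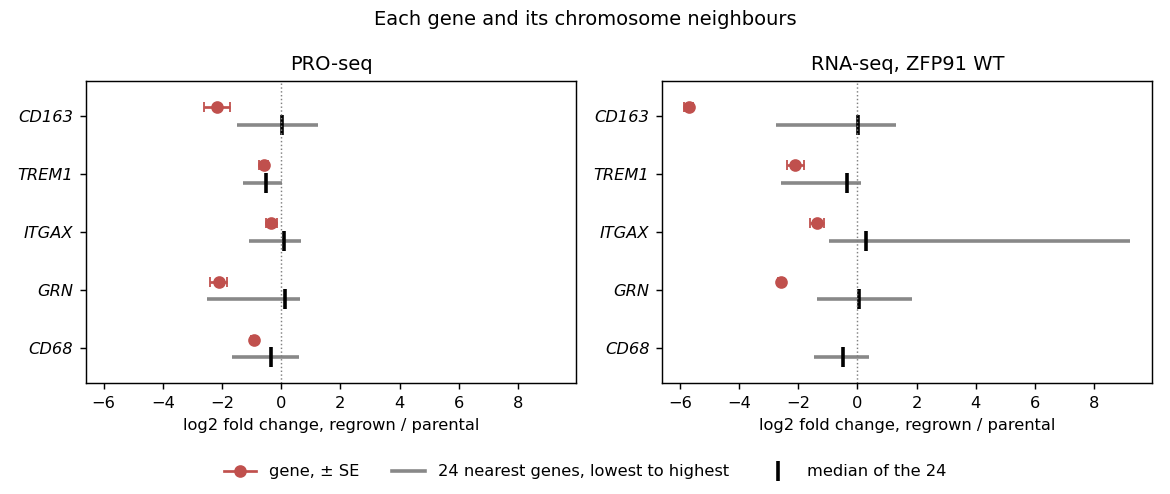
Log2 fold change, regrown over parental, of each gene (red, ± SE) and of the 24 nearest tested genes on its chromosome (grey bar, lowest to highest; tick, median), in PRO-seq and in RNA-seq of ZFP91 WT cells. CD163 lies below the range of its neighbours in both assays, at -2.16 and -5.70, while nascent TREM1 lies at the median of its own; CD68 was not tested in RNA-seq.

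In steady-state RNA of the ZFP91 experiment the CD163 difference was larger than in PRO-seq, which was another assay on other libraries, normalized separately. DGE, which also reads steady-state RNA, gave -3.88 ± 0.41 under DMSO, and PRO-seq gave -3.12 ± 0.16 without pool 1. The part of assay and cells in these unlike sizes was not tested. CD163 had 4.69, 4.79 and 7.49 CPM in regrown WT libraries against 305, 322 and 313 CPM in parental WT libraries, a log2 fold change of -5.70 ± 0.15. After ZFP91 knockout CD163 had 5.81, 7.89 and 7.68 CPM in regrown KO libraries against 386, 381 and 394 CPM in parental KO libraries (-5.77 ± 0.13). The regrown pools were alike and far below every parental library in both settings, including pool 1, the highest regrown library in PRO-seq.

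GRN was lower by a similar amount in both settings. It had 24.5, 26.5 and 22.5 CPM in regrown WT libraries against 163, 148 and 159 CPM in parental WT libraries (-2.58 ± 0.10). In KO cells it had 29.3, 22.6 and 17.7 CPM in regrown libraries against 117, 139 and 140 CPM in parental libraries (-2.51 ± 0.16). No regrown library overlapped a parental one. ITGAX had 5.71, 4.79 and 3.14 CPM in regrown WT libraries against 13.4, 13.6 and 10.49 CPM in parental WT libraries (-1.36 ± 0.23), so that its RNA was lower without overlap although its nascent ranges overlapped. The ITGAX values in KO libraries were 3.95, 5.89 and 3.98 CPM in regrown and 11.96, 10.1 and 11.8 CPM in parental cells (-1.30 ± 0.18).

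TREM1 was lower in regrown WT cells and overlapped between regrown and parental KO cells. It had 1.89, 3.45 and 1.51 CPM in regrown WT libraries against 9.09, 12.3 and 10.4 CPM in parental WT libraries (-2.10 ± 0.29). In KO cells TREM1 had 4.38, 3.89 and 3.43 CPM in regrown libraries against 3.64, 3.63 and 3.53 CPM in parental libraries (0.11 ± 0.19), and these ranges overlapped. In WT cells all 4 members tested were lower without overlap, where 32.5% of the 13379 genes tested were, and in KO cells 3 of 4 were, where 25% of 13444 genes were; both contrasts were in view when the genes were chosen.

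**Figure D3:**
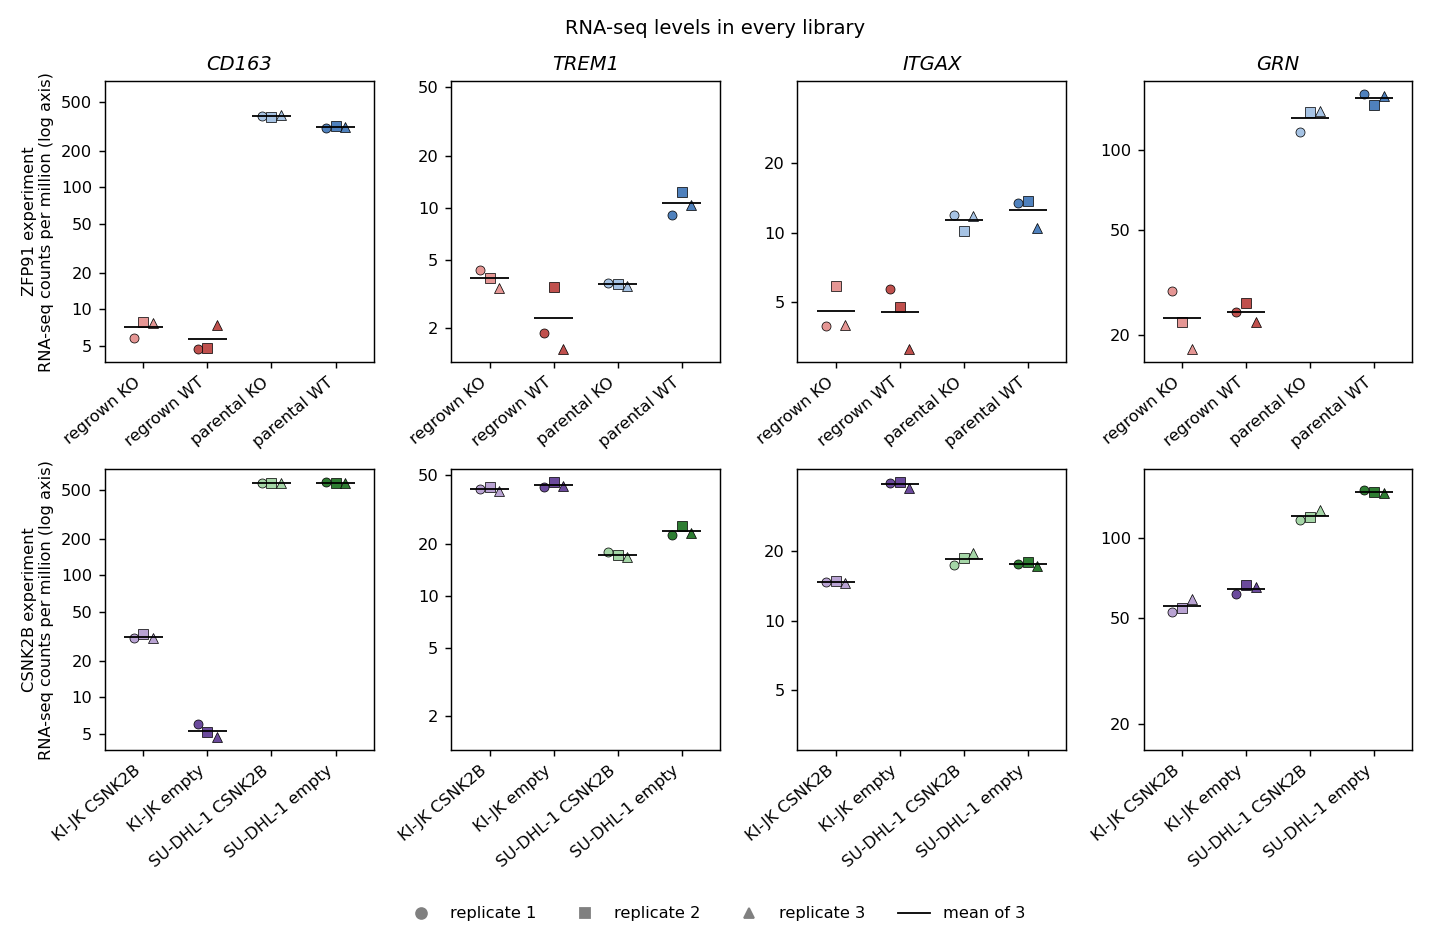
RNA-seq level (CPM, log axis) of 4 genes in every library of the ZFP91 experiment (upper row) and the CSNK2B experiment (lower row); points are libraries and lines are means of 3. CD163 lies near 5 in regrown WT and KI-JK empty-vector cells and above 300 in parental SU-DHL-1, and TREM1 is lower in parental KO than in parental WT libraries.

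DGE, with far fewer counts, gave the lenalidomide response. In parental cells CD163 had 381, 245 and 577 CPM under LEN, resting on 128, 97 and 24 counts, against 126, 159 and 122 CPM under DMSO (44, 55 and 41 counts). Every LEN library was above every DMSO library, with a log2 fold change of 1.39 ± 0.24. TREM1 in parental cells had 59.6, 55.6 and 96.2 CPM under LEN (20, 22 and 4 counts) against 34.5, 28.8 and 29.9 CPM under DMSO (12, 10 and 10 counts), also without overlap (1.02 ± 0.40). GRN had 262, 116 and 168 CPM under LEN against 141, 167 and 131 CPM under DMSO, and these ranges overlapped (0.39 ± 0.27). So 2 of the 3 members tested were higher without overlap, where 5.26% of 5796 genes were; the CD163 response was in view when the genes were chosen. The highest CD163 and TREM1 values came from parental LEN replicate 3, the shallowest library, with 41571 counts.

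In regrown cells CD163 remained near the floor of the assay with or without the drug. It had 8.19, 7.55 and 40.0 CPM under LEN, from 1, 1 and 14 counts, against 2.79, 8.10 and 17.9 CPM under DMSO, from 1, 3 and 5 counts. Pool 3 gave the highest value in both. GRN was the member with enough counts to test in regrown cells, with 32.7, 60.4 and 42.9 CPM under LEN against 36.2, 24.3 and 50.1 CPM under DMSO (0.33 ± 0.49, adjusted p = 0.997 by edgeR's quasi-likelihood test with Benjamini-Hochberg adjustment). No member was called there by edgeR or by DESeq2, and none had an unadjusted p under 0.05 in edgeR, where edgeR called 0.23% of 5661 genes at an adjusted p under 0.05. CD163, TREM1 and ITGAX were under the count filter in that comparison, so their response to the drug in regrown cells was not detectable at this depth.

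CD163 was lower in regrown than in parental cells in both drug conditions, with log2 fold changes of -3.85 ± 0.44 under LEN and -3.88 ± 0.41 under DMSO. Without regrown pool 3 these were -5.44 ± 0.68 under LEN and -4.55 ± 0.46 under DMSO. GRN was lower by -2.06 ± 0.42 under LEN and -2.03 ± 0.30 under DMSO. TREM1 had 65.5, 0 and 2.86 CPM in regrown pools under LEN, from 8, 0 and 1 counts, against 59.6, 55.6 and 96.2 CPM in parental cells (-1.91 ± 0.75). Under DMSO TREM1 had 47.4, 24.3 and 14.3 CPM in regrown pools, from 17, 9 and 4 counts, against 34.5, 28.8 and 29.9 CPM in parental cells (-0.09 ± 0.44). Pool 1 was the highest regrown pool for TREM1 in both conditions. Without it the differences were -4.64 ± 1.01 under LEN, resting on 0 and 1 counts in the regrown pools, and -0.65 ± 0.56 under DMSO. ITGAX had 0 to 5 counts in each DGE library and was not tested.

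**Figure D4:**
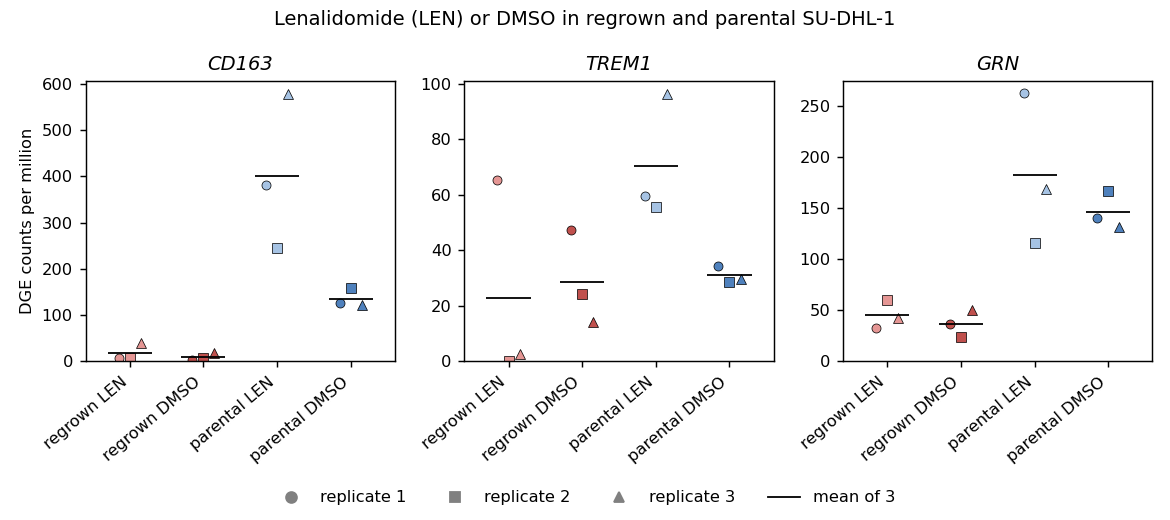
DGE level (CPM, linear axes from 0) of CD163, TREM1 and GRN in regrown and parental SU-DHL-1 cells under lenalidomide (LEN) or DMSO; points are libraries and lines are means of 3. Parental LEN libraries of CD163 (245 to 577) lie above the parental DMSO libraries (122 to 159), and regrown libraries of CD163 stay at or below 40.

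TREM1 RNA fell in parental cells after ZFP91 knockout, and the other members were not called. TREM1 had 3.64, 3.63 and 3.53 CPM in parental KO libraries against 9.09, 12.3 and 10.4 CPM in parental WT libraries. The KO libraries were almost identical and all under the WT range, and TREM1 fell by 1.52 ± 0.17 on the log2 scale (adjusted p = 0.0075 by edgeR's quasi-likelihood test with Benjamini-Hochberg adjustment). Thus 1 of the 4 members tested was called, where 0.427% of 13354 genes were. The same parental WT libraries entered the regrown against parental contrast that was treated as used in choosing the genes. That choice may therefore have affected the TREM1 p-value. The call was lost without parental WT replicate 2 (adjusted p = 0.0728) and without parental KO replicate 3 (adjusted p = 0.0746), with TREM1 log2 fold changes of -1.42 and -1.50. Without parental WT replicate 2 edgeR called 0 of 13876 genes, and 742 had an unadjusted p under 0.05. The 24 neighbours of TREM1 had a median log2 fold change of 0.03; none of them was called by edgeR, and 2 had an unadjusted p under 0.05.

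CD163 in parental cells had 386, 381 and 394 CPM in KO libraries against 305, 322 and 313 CPM in WT libraries, without overlap. Its log2 fold change of 0.34 ± 0.08 was not called by edgeR's quasi-likelihood test (adjusted p = 0.142) and was called by DESeq2 (adjusted p = 0.00217). GRN had 117, 139 and 140 CPM in KO against 163, 148 and 159 CPM in WT libraries, also without overlap and not called by the quasi-likelihood test in edgeR (-0.22 ± 0.09, adjusted p = 0.596). ITGAX overlapped, with 11.96, 10.1 and 11.8 CPM in KO against 13.4, 13.6 and 10.49 CPM in WT libraries (-0.12 ± 0.15).

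In regrown cells no member was called after ZFP91 knockout by edgeR or by DESeq2, and 1, TREM1, had an unadjusted p under 0.05 in edgeR (0.0467), where edgeR called 31.9% of 13107 genes at an adjusted p under 0.05. TREM1 had 4.38, 3.89 and 3.43 CPM in regrown KO libraries against 1.89, 3.45 and 1.51 CPM in regrown WT libraries. The ranges met at a single pair of libraries, KO replicate 3 and WT replicate 2 (0.72 ± 0.33, adjusted p = 0.112 by edgeR with Benjamini-Hochberg adjustment), and without WT replicate 2 the TREM1 difference was called (1.17 ± 0.31, adjusted p = 0.00754). CD163 (0.30 ± 0.23, adjusted p = 0.36), ITGAX (-0.03 ± 0.27) and GRN (-0.12 ± 0.15) overlapped between KO and WT. Regrown libraries also differed in a coverage property: the rank correlation of their deviations with gene span was -0.167 to -0.076 in KO and 0.163 to 0.352 in WT libraries. With that correlation as a term in the fit, edgeR called 0 of the 13107 genes there, against 4186 without it, and 823 had an unadjusted p under 0.05. The part of this property in the member results was not tested, since such a fit could call no member.

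The TREM1 response to ZFP91 knockout differed between regrown and parental cells. The difference of the responses, regrown minus parental, was 2.24 ± 0.36 on the log2 scale (adjusted p = 0.0238 by edgeR's quasi-likelihood test with Benjamini-Hochberg adjustment). This contrast also sets the regrown against parental difference in KO cells (0.11) against that in WT cells (-2.10). Both of those were treated as used in choosing the genes, so the choice may have affected this p-value. TREM1 was the member called of 4, where 9.81% of 14267 genes were called (1399 genes, and 85 with the gene-span term in the fit). The call was lost when any of 7 libraries was left out, with adjusted p between 0.0567 and 0.0865 and a difference between 2.03 and 2.26: parental WT 2 and 3, parental KO 3, regrown WT 1 and 3, and regrown KO 1 and 2. In each of these 7 fits edgeR called 0 genes, and 3244 to 3768 had an unadjusted p under 0.05. The TREM1 call held with replicate number as a block (adjusted p = 0.0041 by edgeR). That number is the pool in regrown cells, and parental libraries share only a number. CD163, ITGAX and GRN showed no called difference of response.

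CD163 rose in KI-JK with CSNK2B, the regulatory subunit of casein kinase 2, and was not called in SU-DHL-1. In KI-JK, CD163 had 30.8, 33.4 and 30.4 CPM with the CSNK2B vector against 6.02, 5.23 and 4.71 CPM with the empty vector. Every CSNK2B library was far above the empty-vector range, a 6.01-fold difference (log2 2.59 ± 0.09, adjusted p = 1.31e-14 by edgeR's quasi-likelihood test with Benjamini-Hochberg adjustment). In SU-DHL-1, CD163 had 574, 579 and 572 CPM with CSNK2B against 586, 575 and 570 CPM with the empty vector (-0.01 ± 0.03, adjusted p = 0.909). The responses differed by 2.61 ± 0.08 on the log2 scale, KI-JK minus SU-DHL-1 (adjusted p = 2.28e-20 by the same edgeR test). The CD163 level reached in KI-JK remained far under that of SU-DHL-1.

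ITGAX moved the other way in KI-JK. It had 14.7, 14.9 and 14.6 CPM with CSNK2B against 39.3, 39.7 and 37.5 CPM with the empty vector, and fell by 1.38 ± 0.07 on the log2 scale (adjusted p = 1.18e-12, edgeR quasi-likelihood test with Benjamini-Hochberg adjustment). The groups were tight and far apart. In SU-DHL-1, ITGAX had 17.4, 18.7 and 19.5 CPM with CSNK2B against 17.6, 17.9 and 17.2 CPM with the empty vector, and these ranges overlapped (0.07 ± 0.08, adjusted p = 0.691 by edgeR). The difference of the ITGAX responses was -1.44 ± 0.10 (adjusted p = 7.27e-12 by edgeR). KI-JK cells carrying CSNK2B thus ended at an ITGAX level near that of SU-DHL-1.

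GRN fell with CSNK2B in both lines. It had 52.6, 54.5 and 58.7 CPM with CSNK2B against 61.4, 66.4 and 65.5 CPM with the empty vector in KI-JK (-0.20 ± 0.05, adjusted p = 0.0051 by edgeR with Benjamini-Hochberg adjustment). In SU-DHL-1 it had 117, 120 and 127 CPM with CSNK2B against 151, 150 and 148 CPM with the empty vector (-0.31 ± 0.04, adjusted p = 1.29e-05 by edgeR). Neither line showed overlap, and the GRN responses did not differ past the threshold (0.12 ± 0.07, adjusted p = 0.22 by edgeR).

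TREM1 fell with CSNK2B in SU-DHL-1, where it had 17.9, 17.3 and 16.7 CPM with CSNK2B against 22.5, 25.3 and 23.0 CPM with the empty vector (-0.45 ± 0.07, adjusted p = 0.000224 by edgeR with Benjamini-Hochberg adjustment). In KI-JK it had 41.3, 42.9 and 40.7 CPM with CSNK2B against 42.8, 45.7 and 43.4 CPM with the empty vector, which overlapped at their edges (-0.06 ± 0.06, adjusted p = 0.429 by edgeR). The TREM1 responses differed by 0.40 ± 0.09 (adjusted p = 0.00209 by edgeR). In all, 3 of 4 members tested were called in KI-JK, where 35.7% of 14104 genes were, 2 of 4 in SU-DHL-1, where 6.74% of 13727 genes were, and 3 of 4 in the difference of responses, where 19.2% of 15564 genes were. Among the 24 nearest genes in KI-JK, those of CD163 ran from -0.92 to 0.37 in log2 fold change (median -0.08; 1 rose and 6 fell) and those of ITGAX from -0.74 to 0.35 (median -0.01; 4 rose and 4 fell), and neither range held the value of the member. In SU-DHL-1 the neighbours of TREM1 ran from -0.75 to 0.29 (median -0.01; 1 rose).

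**Figure D5:**
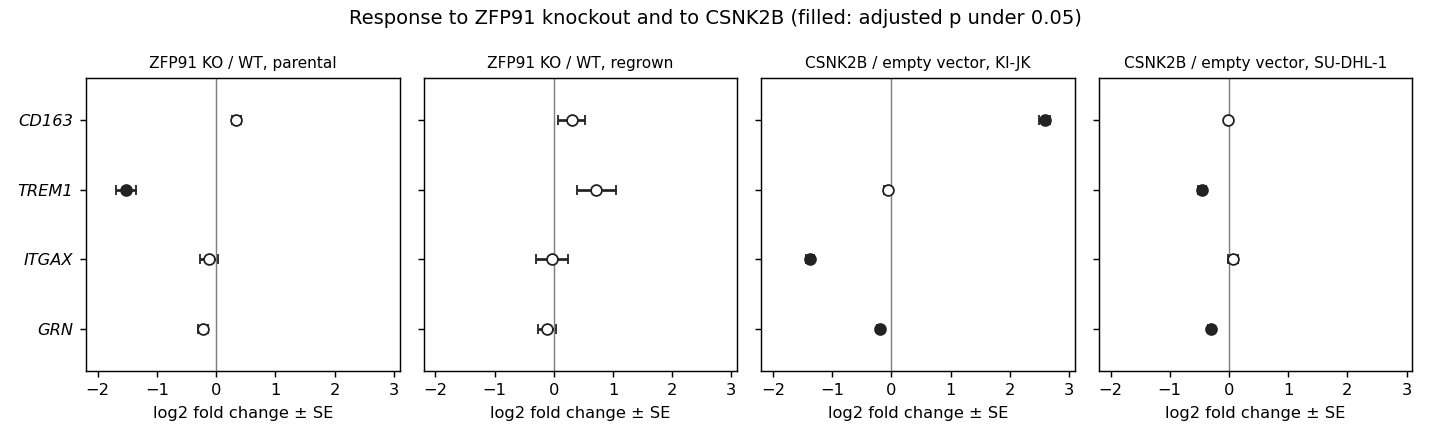
Log2 fold change ± SE (n = 3 libraries per group) of 4 genes for ZFP91 KO over WT in parental and regrown SU-DHL-1 and for the CSNK2B over the empty vector in KI-JK and SU-DHL-1; filled points had an adjusted p under 0.05 in edgeR's quasi-likelihood test. TREM1 is called in parental KO cells (-1.52), and CD163 (2.59) and ITGAX (-1.38) move in opposite directions in KI-JK.

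With the empty vector, KI-JK had far less CD163 than SU-DHL-1, at 4.71 to 6.02 CPM against 570 to 586 CPM (-6.72 ± 0.06). GRN was also lower, at 61.4 to 66.4 CPM in KI-JK against 148 to 151 CPM in SU-DHL-1 (-1.17 ± 0.04). TREM1 and ITGAX were higher in KI-JK, by 0.95 ± 0.06 and 1.19 ± 0.07 on the log2 scale. None of the 4 overlapped between the lines, nor did 80.1% of 14786 genes, and the levels were in view when the genes were chosen. KI-JK was grown in 20% serum and SU-DHL-1 in 10%, and the lines came as separate tables, so line, serum and table cannot be told apart.

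Ordered by mean, CD163 RNA was highest in SU-DHL-1 with CSNK2B and with the empty vector (575 ± 3.79 and 577 ± 8.42 CPM, SD, n = 3 each), which overlapped. Then came parental KO (387 ± 6.43 CPM), parental WT (313 ± 8.43 CPM) and KI-JK with CSNK2B (31.5 ± 1.603 CPM), each apart from its neighbours in the order. At the low end, regrown KO (7.13 ± 1.144 CPM), regrown WT (5.66 ± 1.59 CPM) and KI-JK with the empty vector (5.32 ± 0.657 CPM) overlapped. TREM1 had another order, with KI-JK at the top (41.6 ± 1.139 CPM with CSNK2B and 44.0 ± 1.53 CPM with the empty vector) and regrown WT at the bottom (2.28 ± 1.03 CPM). These experiments were normalized separately, and unselected SU-DHL-1 itself differed between them, with TREM1 at 23.6 CPM with the empty vector and 10.6 CPM in parental WT cells.

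CD68 was counted in PRO-seq and yet almost uncounted in RNA-seq. PRO-seq gave it 2520 to 5695 counts per library, while RNA-seq gave 0 to 5 counts per library in both lines and all 8 groups. At sums of 7 and 4 counts in regrown KO and regrown WT, and 2 and 7 counts in parental KO and parental WT, no comparison was made. EIF4A1, which lies next to CD68 and encodes a translation initiation factor that all cells need, averaged 13.4 CPM in parental WT RNA-seq, while MPDU1, another neighbour, had 109 to 120 CPM there. How overlapping genes were counted is not given in the sources used here, and its part in the CD68 counts was not tested.

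Genes tied to the functions of the members were described from textbook lists. The lists were chosen with earlier results of these data known, so calls counted between regrown and parental cells are given as a description. Of the monocyte and macrophage surface markers, 6 of 24 were tested in WT RNA-seq, and 5 of them fell and none rose in regrown against parental cells by edgeR's quasi-likelihood test, where 21.1% of all genes fell and 22.6% rose, with a median of -1.57 where that of all genes tested was 0. Their log2 fold changes were -4.15 ± 0.32 for the Fc receptor gene FCGR2A, -1.65 ± 0.16 for SIRPA and -1.64 ± 0.16 for the G-CSF receptor gene CSF3R. The list summed to 41.2 to 55.6 CPM in regrown WT and 141 to 162 CPM in parental WT libraries. FCGR1A, TLR2, CSF2RA, VSIG4, MRC1, CLEC7A, SIGLEC1 and LILRB4 had no count in parental WT cells.

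Of 16 granule and secreted myeloid genes 2 were tested, and both, S100A9 (3.69 ± 0.22) and CHI3L1 (1.90 ± 0.12), rose in regrown WT cells, where 22.6% of all genes rose. The 16 genes summed to 153 to 203 CPM against 41.98 to 48.6 CPM in parental WT cells. MPO, ELANE, AZU1, PRTN3, CTSG and LYZ, defining genes of granulocytes and monocytes, had no count in parental WT cells. B cell markers summed to under 1 CPM in every library of the ZFP91 experiment. The part of any other cell type in the member differences was not tested beyond these levels.

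Among inputs to CD163, IL10 was lower in regrown WT than in parental WT cells (-1.37 ± 0.11). The list had 3 rises and 2 falls of 10, where 22.6% of all genes rose and 21.1% fell. In parental DGE, IL10 was lower under LEN (log2 fold change -3.1 ± 0.31), at 23.3 CPM against 300 CPM under DMSO, in the libraries where CD163 was higher. With CSNK2B in KI-JK the list had 3 rises and 1 fall of 12, where 18.4% of all genes rose and 17.3% fell. TYK2, which encodes a kinase of the interleukin-10 receptor, fell by 0.30 ± 0.04 (adjusted p = 5.22e-06 by edgeR), while NR3C1, the glucocorticoid receptor gene, rose by 0.12 ± 0.04 and its target FKBP5 by 0.18 ± 0.04 on the log2 scale. In parental KO against parental WT cells IL10 fell (-0.86 ± 0.14, adjusted p = 0.0485 by edgeR), the list member called of 10 tested, and of 10 myeloid transcription factors tested EGR2 fell (-0.83 ± 0.13, adjusted p = 0.0365 by edgeR), where 0.427% of all genes were called. Both calls were lost without parental WT replicate 2, when edgeR called 0 of 13876 genes and 742 had an unadjusted p under 0.05.

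Genes that act with TREM1, ITGAX and GRN were counted in the same comparisons. In PRO-seq 1 of 8 TREM1 signalling genes tested fell in regrown against parental cells, the kinase gene SYK (-4.13 ± 0.27), and none rose. Of all genes tested there, 16.2% fell and 14% rose. Of 6 TREM1 signalling genes tested in WT regrown against parental cells, 2 rose and 2 fell, led by the phospholipase gene PLCG2 (-1.33 ± 0.14). Of all genes tested there, 22.6% rose and 21.1% fell. None of 6 was called by edgeR after ZFP91 knockout in parental cells, where TREM1 fell, and 1 had an unadjusted p under 0.05. There 0.427% of all genes were called. TYROBP, the adaptor of TREM1, had no count in any group of the ZFP91 experiment, nor had TREM2 and TREML1. SYK had no count in regrown KO and regrown WT cells. With CSNK2B in SU-DHL-1, SYK fell by 0.80 ± 0.14 on the log2 scale (adjusted p = 0.000678 by edgeR), the gene called of 8 tested, where 6.74% of all genes were called. With CSNK2B in KI-JK, the integrin list had 1 rise and 4 falls of 12, where 18.4% of all genes rose and 17.3% fell. The integrin ligand gene ICAM3 fell by 0.76 ± 0.09, ITGAL, an integrin alpha chain that shares the ITGB2 partner with ITGAX, fell by 0.47 ± 0.08, and the ligand gene ICAM1 rose by 0.28 ± 0.05 on the log2 scale. Of 21 lysosomal and progranulin-binding genes, 5 rose and 4 fell in regrown WT cells (median 0.05), against 22.6% and 21.1% of all genes. GRN was 2.58 lower there on the log2 scale. In KI-JK with the empty vector SORT1 averaged 0.286 CPM against 37 CPM in SU-DHL-1.

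Over the 24 RNA-seq libraries, the genes whose levels were most like those of CD163 were SLC26A4 (Pearson r = 0.973), HMGN5 (0.972) and ZNF778 (0.97), and for GRN they were LHFPL2 (0.981), TESMIN (0.979) and IDH3B (0.978). For TREM1 they were CCNA1 (0.986), STX12 (0.973), AL357992.1 (0.967) and RAB33A (0.966), with JUN, which encodes an AP-1 subunit, at 0.963, and for ITGAX they were ATP8B3 (0.971), GOLGA2P5 (0.950) and PXYLP1 (0.949). Likeness was taken on log2(CPM + 1) over 11516 genes. Among the members themselves r was 0.883 for CD163 with GRN, 0.843 for TREM1 with ITGAX, 0.236 for CD163 with ITGAX and 0.084 for CD163 with TREM1. Over the 12 libraries of the ZFP91 experiment, all SU-DHL-1, r was 0.978 for CD163 with GRN, 0.656 for TREM1 with ITGAX, 0.933 for CD163 with ITGAX and 0.59 for CD163 with TREM1, so that ITGAX ordered with TREM1 over both lines and with CD163 and GRN (0.94) within SU-DHL-1. The 24 libraries are 8 groups of 3 from 2 lines, so these values mostly order groups and carry no test.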

How the data were processed

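Gene counts of 42 libraries in 5 tables were analysed. The values deposited by the authors were whole-number counts per gene, not normalized, and every unit used here derives from them. The submitters' processing notes name cutadapt 1.14, Bowtie 1.2.2, featureCounts 1.6.2 and hg38 for PRO-seq. For DGE they name Bowtie2 2.2.3 and hg19, and for RNA-seq hg38, STAR 2.6.1d, edgeR 3.24.3 and DESeq2 1.20.0. The counter for RNA-seq and DGE, its treatment of overlapping genes and any collapsing of molecular identifiers are not given in the sources used here.

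CPM divides by the total count of the library. Each comparison was fitted over all genes of the groups compared with edgeR 4.0.16 (filterByExpr, TMM, quasi-likelihood test, two-sided; R 4.3.3), p-values adjusted by Benjamini-Hochberg across every gene of the fit, and a call at an adjusted p under 0.05. The SE was obtained from the F statistic and the log2 fold change. Of 15 comparisons, 7 gave tests for the members and 8 are descriptions of them. The script was tested on simulated counts. Likeness and neighbours (12 tested genes on each side) followed fixed rules. The named genes are the 5 members and, per list, at most 3 genes by p or by size of change; not all are printed. The members and the 11 lists were chosen with earlier results of these data known. Alternatives were other scaling, DESeq2 1.42.0, other count filters, a fit of all groups, a replicate block, leaving out each library and, added after seeing the data, the rank correlation of each library with gene span as a term. Regrown libraries with the same number are the same pool, per the labels, which pairs DMSO with LEN and WT with KO within regrown cells; their deviations correlated at -0.068, 0.118 and 0.048 and at 0.006, 0.043 and 0.101. Libraries of 1 group always differed beyond sampling noise (chi-square over its degrees of freedom at least 1.34).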

Additional observations from a re-analysis of the deposited data

Results flagged for a closer look

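The response of TREM1 to ZFP91 knockout differed between regrown and parental cells by 2.24 on the log2 scale (regrown minus parental, adjusted p = 0.0238 by edgeR's quasi-likelihood test of the difference itself). TREM1 was lower in all 3 parental KO libraries than in any parental WT library, and higher in KO than in WT in each of the 3 regrown pools. In regrown cells alone the ranges overlapped and TREM1 was not called (adjusted p = 0.112 by edgeR). The call of the difference was lost when any of 7 libraries was left out. It is built from contrasts treated as used in choosing the genes, and knockout cannot be told apart from doxycycline.

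The response to CSNK2B differed between KI-JK and SU-DHL-1 for 3 members by the same edgeR test: CD163 by 2.61 (adjusted p = 2.28e-20), TREM1 by 0.40 (adjusted p = 0.00209) and ITGAX by -1.44 (adjusted p = 7.27e-12), each as KI-JK minus SU-DHL-1 on the log2 scale. No explanation was tested for these differences.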

How the results depend on the processing

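Member log2 fold changes were recomputed 769 times under the alternatives. Of these, 738 kept their side of the threshold or, without a test, moved by less than the spread between replicates. A call was lost in 9 and gained in 4, and 18 without a test moved further. The sign changed in 33 of the 769 with no call in either fit, and no called value changed sign. The number of members called after ZFP91 knockout in parental cells was 1, and it was 2 with DESeq2 (CD163 added), 3 with the gene-span term (CD163 and GRN added) and 0 to 1 with a library left out. It was 0 in regrown cells and 0 to 1 with a library left out, where the gene-span fit called no gene at all, and 1 for the difference of responses, 0 to 1 with a library left out. Counts of members called in the CSNK2B comparisons and in regrown LEN against DMSO were unchanged by the alternatives run. With replicate number as a block, 1, 0 and 1 members were called in the ZFP91 comparisons (parental, regrown, difference), and 2, 3 and 3 in those of CSNK2B (SU-DHL-1, KI-JK, difference), so the pairing changed no call; outside the regrown pools the samples share only a number. In described comparisons, without regrown replicate 3 CD163 in DGE was -5.44 under LEN and -4.55 under DMSO, and the gene-span term moved TREM1 in WT cells to -1.63. The low DGE depth, 1 to 14 counts of CD163 in regrown libraries, limits every DGE value there, and CD68 in RNA-seq lies under any depth that could show a change.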
